A study of Mus musculus with 6 samples.

Results

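The 36 genes described here encode the aminoacyl-tRNA synthetases of the mouse, 20 of the cytosol and 16 of the mitochondrion. They were taken by gene symbol from the 32815 gene rows of the deposited expression table, and all 36 were found. Transcripts had been profiled by sequencing of poly(A) RNA from C2C12 cells, an immortalised line of mouse myoblasts, the precursor cells of skeletal muscle. The MS group holds 3 libraries of wild-type C2C12 cells after cyclic mechanical stretch on a loading device that bends the culture plate. Per the labels, the stretch was set at 5333 μ, a unit they do not spell out, applied for 8 h at 1 Hz with the plate displaced by 4 mm. The control group holds 3 libraries of wild-type C2C12 cells labelled as control, and the labels do not say how these were kept. Both groups are of 1 cell line, so they stand for that line in culture and not for muscle in an animal. The comparison asks which synthetase transcripts differ between stretched and control cells, and whether the enzymes of the cytosol and of the mitochondrion do so alike.

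Aminoacyl-tRNA synthetases join each amino acid to its transfer RNA, the step that fixes the meaning of the genetic code. The mitochondrion translates its own messenger RNAs with a separate set of synthetases, which are encoded in the nucleus, made in the cytosol and imported. When transfer RNAs go uncharged, the kinase GCN2 can sense them and start the integrated stress response, in which the transcription factor ATF4 raises genes of amino acid uptake, amino acid synthesis and transfer RNA charging. In muscle cells these enzymes supply the protein synthesis on which growth and repair rest.

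The libraries did not differ by treatment alone. Transcripts of tongue and salivary gland, of which 7 of 9 listed genes were in the table, summed to 141 FPKM in MS 1 and to 6.68 and 7.33 FPKM in MS 2 and MS 3, against 120 FPKM in control 3 and 10.5 and 10.6 FPKM in control 1 and control 2. FPKM counts fragments relative to transcript length and library size. The salivary gene Bpifa2 was at 0 in MS 2, MS 3, control 1 and control 2. A list of 9 kidney genes summed to between 97.0 and 107 FPKM in the MS libraries, against 97.1 FPKM in control 3 and 1.01 and 1.15 FPKM in control 1 and control 2. Lens genes, 11 of 12 in the table, summed to between 296 and 760 FPKM in MS and to between 243 and 913 FPKM in control, and were lowest in MS 1 and control 3. Of the myoblast markers, the muscle filament gene Des lay between 46.7 and 57.8 FPKM in MS and between 51.0 and 59.8 FPKM in control. The myoblast factors Myod1 and Myf5 were low, with 0.823 to 1.20 and 1.63 to 2.11 FPKM in MS, against 1.42 to 2.00 and 2.32 to 2.50 FPKM in control. The adhesion gene Cdh15 had 0.740 to 0.893 FPKM in MS, against 1.28 to 2.02 FPKM in control, and the differentiation factor Myog had 0.0371 to 0.224 FPKM in MS, against 0.302 to 0.314 FPKM in control. Myod1, Myf5, Cdh15 and Myog were lower in every MS library than in any control library, as were 26.8% of all genes tested below. Myog lay under the mean of 1 FPKM required for that test. The part of these lower marker values in the results below was not tested. Pax7, the marker of muscle stem cells, was at 0 in every library except MS 3, where it had 0.00940 FPKM. The part of the other tissues' transcripts was not tested either, and MS 1 against control 3, which share the salivary and kidney transcripts, is given beside them.

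Most cytosolic synthetases were higher after stretch, and most by about 2-fold or more, while the mitochondrial set moved little and in both directions. Of the 20 cytosolic genes, 16 rose, none fell and 4 did not pass the test (limma on log2(FPKM + 1), adjusted p under 0.05 by Benjamini-Hochberg over all 12028 tested genes). Over all tested genes, 30.6% rose and 23.2% fell, 53.8% in all. That balance turned under a median-ratio scaling of the libraries, with 3074 genes higher and 3191 lower, while the cytosolic count stayed at 16. A rise of at least 2-fold was found for 12 of the 20, against 1.74% of all tested genes, and none fell by that much, against 3.43%. The median log2 fold change (MS minus control, here and below) of the cytosolic set was 1.07, with a range of -0.18 to 1.51, against 0.05 over all tested genes. Of the 16 mitochondrial genes, 6 rose, 2 fell and 8 did not pass, and their median was 0.14. Only Lars2 among these rose by at least 2-fold. The difference between the 2 classes was not tested, since genes are not replicates of a condition. All 36 genes passed the filter of a mean of at least 1 FPKM, with Mars2 and Ears2 nearest to it at 1.28 and 1.34 FPKM. In bulk libraries, a change in the make-up of the cells and a change of RNA per cell cannot be told apart.

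In sum over the 20 cytosolic genes, the level per library was 1263, 1440 and 1296 FPKM in MS, against 633, 671 and 794 FPKM in control. The 2 groups did not overlap, and the sum took between 0.422% and 0.476% of all FPKM in MS, against between 0.196% and 0.241% in control. The 15 mitochondrial genes other than Lars2 summed to 74.0, 79.4 and 73.6 FPKM in MS, against 67.1, 65.8 and 70.7 FPKM in control. The cytosolic genes were the more abundant set in both groups, with gene means from 21.4 FPKM (Qars) to 172 FPKM (Gars) in MS and from 14.1 FPKM (Cars) to 73.7 FPKM (Gars) in control. Mitochondrial gene means ran from 1.52 FPKM (Mars2) to 25.9 FPKM (Lars2) in MS and from 1.02 FPKM (Ears2) to 15.0 FPKM (Iars2) in control.

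**Figure D1:**
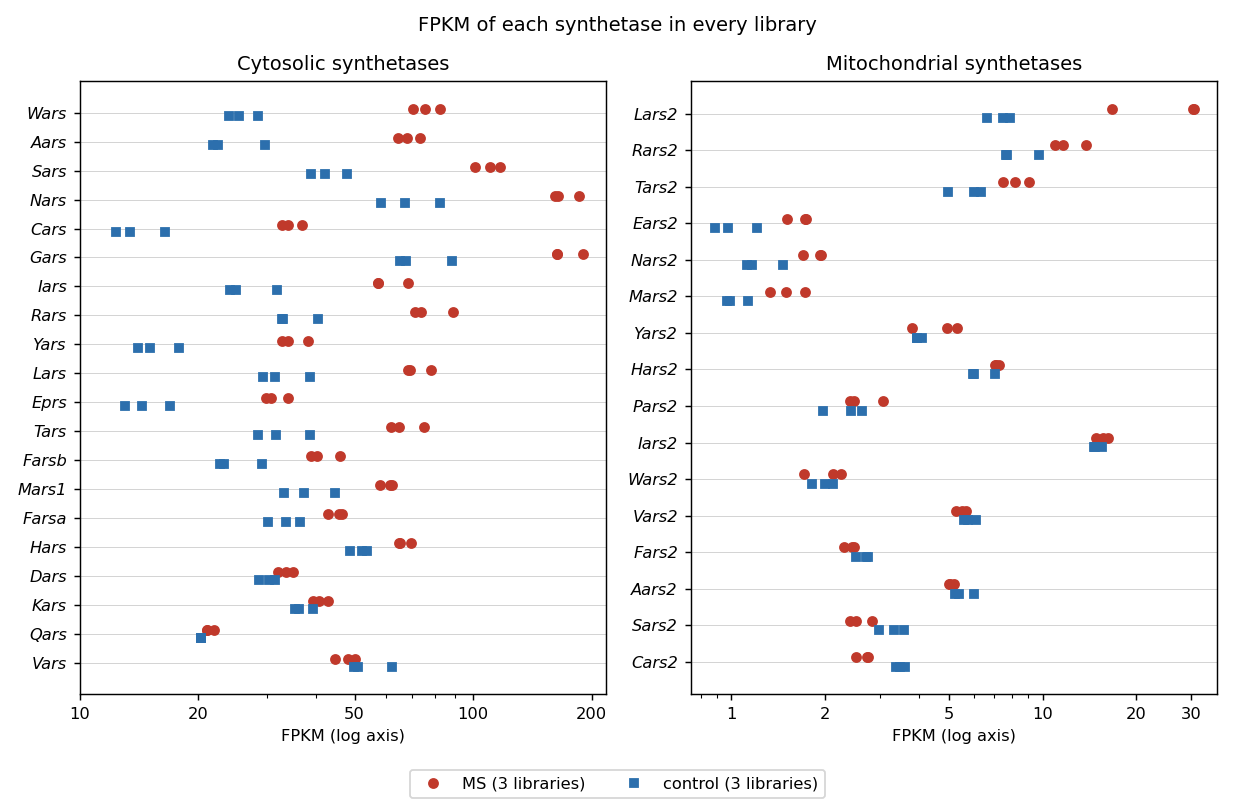
Level of each synthetase gene in each library, in FPKM on a log axis, with cytosolic genes on the left and mitochondrial genes on the right, ordered by fold change. Circles are the 3 MS libraries and squares the 3 control libraries. From Wars down to Qars the MS circles of the cytosolic genes lie to the right of the control squares except for Kars, whereas most mitochondrial genes lie close together.

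The tryptophanyl-tRNA synthetase gene Wars (chromosome 12, 108825956 to 108860100, mm39) had 70.3, 82.3 and 75.6 FPKM in MS, against 24.0, 25.4 and 28.4 FPKM in control. Every MS library was above every control library, and the log2 fold change was 1.51 ± 0.08 (SE, n = 3 each; limma adjusted p = 2.13e-05). Beside its part in translation, this enzyme has a form that is released from cells. The alanyl enzyme gene Aars (chromosome 8, 111759776 to 111773375) had 64.3, 73.1 and 67.8 FPKM in MS, against 21.8, 22.5 and 29.6 FPKM in control, a log2 fold change of 1.45 ± 0.11 (limma adjusted p = 8.18e-05). The seryl enzyme gene Sars (chromosome 3, 108332181 to 108352525) had 101, 117 and 111 FPKM in MS, against 38.7, 42.1 and 47.9 FPKM in control, with a log2 fold change of 1.34 ± 0.09 (limma adjusted p = 3.78e-05). Seryl-tRNA synthetase also charges the transfer RNA on which selenocysteine is made. In all 3 genes the lowest MS library stood above the highest control library.

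The asparaginyl enzyme gene Nars (chromosome 18, 64632718 to 64649723) was among the most abundant members, with 164, 186 and 162 FPKM in MS, against 58.5, 67.0 and 82.5 FPKM in control. Its log2 fold change was 1.30 ± 0.12 (SE, n = 3 each; limma adjusted p = 0.000171). The cysteinyl enzyme gene Cars (chromosome 7, 143110967 to 143153827) had 32.7, 36.7 and 33.8 FPKM in MS, against 13.4, 12.4 and 16.5 FPKM in control, a log2 fold change of 1.24. Gars (chromosome 6, 55014992 to 55056485) encodes glycyl-tRNA synthetase, which serves the cytosol and, from the same gene, the mitochondrion. It was the most abundant of the 36, with 163, 190 and 163 FPKM in MS, against 65.3, 67.7 and 88.2 FPKM in control, and its log2 fold change was 1.22 ± 0.12 (limma adjusted p = 0.000208). In each of these genes MS 2 was the highest MS library and control 3 the highest control library, and the groups did not overlap.

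The next 4 genes code for enzymes of branched-chain and other amino acids, and their fold changes lay close together. Iars (isoleucine; chromosome 13, 49835576 to 49887743) had 57.2, 68.3 and 57.4 FPKM in MS, against 24.9, 24.2 and 31.7 FPKM in control, with a log2 fold change of 1.15 ± 0.12 (limma adjusted p = 0.000222). Rars (arginine; chromosome 11, 35699208 to 35725333) had 71.3, 88.8 and 73.8 FPKM in MS, against 32.7, 32.9 and 40.3 FPKM in control, with a log2 fold change of 1.12. The MS libraries of both genes stood above all controls. Yars (tyrosine; chromosome 4, 129083553 to 129113400) had 32.7, 38.0 and 33.8 FPKM in MS, against 14.1, 15.1 and 17.9 FPKM in control, with a log2 fold change of 1.11. Lars (leucine; chromosome 18, 42335363 to 42395259), whose protein also reports leucine to the growth regulator mTORC1, had 69.2, 78.1 and 68.3 FPKM in MS, against 29.3, 31.4 and 38.6 FPKM in control, with a log2 fold change of 1.10 ± 0.10.

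Eprs, a fused enzyme for glutamate and proline, and Tars (threonine) followed at 1.04 and 1.02. From Wars to Tars each step in this order was 0.11 or less, below or near the standard error of a single gene, so neighbours in the order cannot be separated.

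Promoter sequence is shown next for the 5 genes of this group that held a match to the site described below. It is also shown for Qars, which did not pass the test and held no match. Sars and Eprs, of the same group and without a match, are not printed. The site was searched because the amino acid response element is the known route by which ATF4 acts on genes of this kind. ATF4 with a C/EBP partner binds a composite site that was searched here as TGATGNAAN, on both strands and with any overlap allowed. The sequences are RefSeq windows from 250 bases before to 50 bases after the annotated start on GRCm38.p6, another build than the mm39 of the expression table. They are written along the gene's strand, 5′ to 3′, in lower case with each match in capitals. Of the 36 genes, 27 matched a window, 13 cytosolic and 14 mitochondrial; Cars, Hars, Lars, Nars, Rars, Vars, Wars, Hars2 and Pars2 did not.
Aars promoter, chr8:111033592-111033891, plus strand: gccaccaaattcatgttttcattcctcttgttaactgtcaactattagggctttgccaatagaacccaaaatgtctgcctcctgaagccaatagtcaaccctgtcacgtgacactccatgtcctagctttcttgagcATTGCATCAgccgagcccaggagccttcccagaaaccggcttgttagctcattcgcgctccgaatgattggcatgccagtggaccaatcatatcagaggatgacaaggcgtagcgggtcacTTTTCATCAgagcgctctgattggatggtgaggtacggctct
Gars promoter, chr6:55037751-55038050, plus strand: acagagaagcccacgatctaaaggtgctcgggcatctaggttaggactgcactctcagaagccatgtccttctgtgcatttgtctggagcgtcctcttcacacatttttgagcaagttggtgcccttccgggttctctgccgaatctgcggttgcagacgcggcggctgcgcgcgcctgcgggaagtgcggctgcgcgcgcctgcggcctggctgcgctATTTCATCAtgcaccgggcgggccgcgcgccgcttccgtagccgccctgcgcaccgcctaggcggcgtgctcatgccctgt
Iars promoter, chr13:49681880-49682179, plus strand: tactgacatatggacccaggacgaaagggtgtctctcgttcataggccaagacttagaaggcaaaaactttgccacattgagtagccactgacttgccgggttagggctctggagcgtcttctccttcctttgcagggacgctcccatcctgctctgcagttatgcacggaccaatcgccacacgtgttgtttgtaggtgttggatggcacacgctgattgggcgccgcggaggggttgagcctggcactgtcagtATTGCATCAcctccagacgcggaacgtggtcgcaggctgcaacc
Yars promoter, chr4:129189653-129189952, plus strand: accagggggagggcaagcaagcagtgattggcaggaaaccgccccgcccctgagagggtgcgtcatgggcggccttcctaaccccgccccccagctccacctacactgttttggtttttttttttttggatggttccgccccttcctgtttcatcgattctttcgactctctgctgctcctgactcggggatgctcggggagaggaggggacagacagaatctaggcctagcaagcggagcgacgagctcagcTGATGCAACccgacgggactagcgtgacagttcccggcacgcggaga
Tars promoter, chr15:11399609-11399908, minus strand: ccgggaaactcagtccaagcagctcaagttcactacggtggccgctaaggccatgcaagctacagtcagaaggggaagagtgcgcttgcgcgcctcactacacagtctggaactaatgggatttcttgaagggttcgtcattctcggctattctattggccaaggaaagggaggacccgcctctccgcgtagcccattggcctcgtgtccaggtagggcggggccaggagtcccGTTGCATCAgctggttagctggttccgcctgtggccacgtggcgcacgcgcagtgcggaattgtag
Qars promoter, chr9:108507755-108508054, plus strand: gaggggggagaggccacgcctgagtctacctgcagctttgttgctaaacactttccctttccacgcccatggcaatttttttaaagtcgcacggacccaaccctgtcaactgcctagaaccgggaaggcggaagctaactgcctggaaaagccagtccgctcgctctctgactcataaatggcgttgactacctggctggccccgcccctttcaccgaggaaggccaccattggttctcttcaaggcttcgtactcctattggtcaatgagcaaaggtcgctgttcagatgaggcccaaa

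A match was found in 5 of the 13 cytosolic windows (38.5%), in 0 of the 14 mitochondrial windows, and in 4.50% of the 27025 genes of the promoter table. The 5 genes were Aars, Gars, Iars, Yars and Tars, all of which rose by at least 2-fold. Of the 7 cytosolic genes with a window and such a rise, Sars and Eprs held no match, and none of the other 6 cytosolic windows, Qars among them, held one. Aars held 2 matches, TGATGCAAT at position -113 and TGATGAAAA at position 8, with positions counted from the annotated start to the leftmost base of the match. Gars held TGATGAAAT at -31, Tars TGATGCAAC at -16 and Iars TGATGCAAT at 6, and all of these read on the strand opposite to the gene. Yars held TGATGCAAC at position 3 on the gene's own strand. Apart from the upstream match of Aars, each match began within 31 bases of the start. A match is a description of letters, and binding was not measured.

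**Figure D2:**
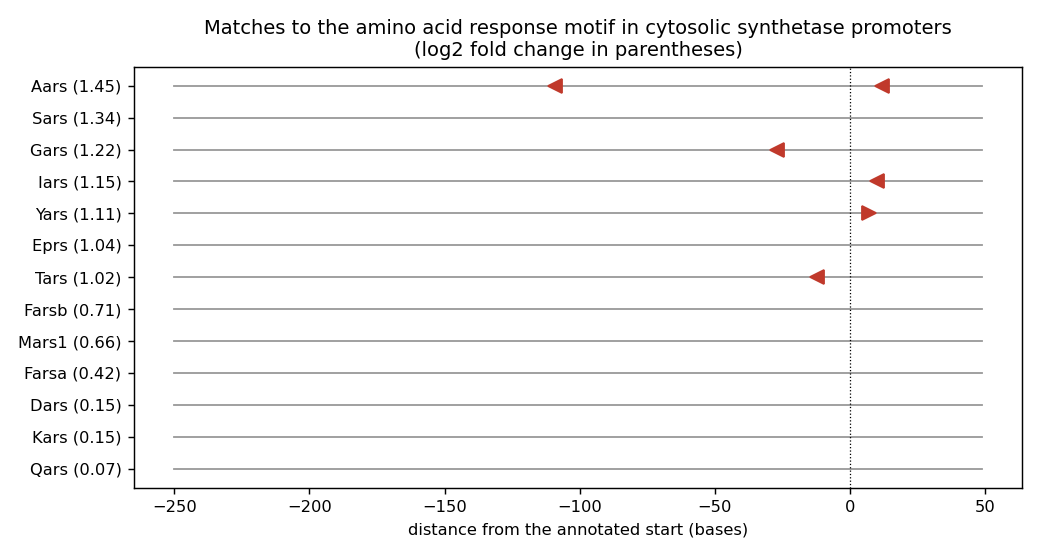
Positions of matches to the amino acid response motif in the 13 cytosolic synthetase promoters with a RefSeq window, in bases from the annotated start (dotted line), ordered by log2 fold change. Arrowheads point along the strand on which the match reads, and the 6 matches lie in 5 genes that rose by at least 2-fold.

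After Tars came a step of 0.31 to the next gene, the widest in the cytosolic order. Farsb and Farsa encode the 2 kinds of subunit of phenylalanyl-tRNA synthetase, which work together in 1 enzyme. Farsb averaged 41.6 ± 3.83 FPKM in MS and 25.1 ± 3.49 FPKM in control (SD, n = 3 each), a log2 fold change of 0.71 ± 0.10 (SE), and Farsa averaged 44.9 ± 1.91 FPKM in MS and 33.3 ± 3.12 FPKM in control, a log2 fold change of 0.42 ± 0.07. The 95% intervals, 0.47 to 0.96 for Farsb and 0.25 to 0.59 for Farsa, overlapped, and a difference between the subunits was not tested. Mars1, the methionyl enzyme, rose by 0.66 on the log2 scale, with means of 60.6 FPKM in MS and 38.2 FPKM in control. Its row overlaps by 68 bp, on the opposite strand, that of the stress gene Ddit3, which averaged 44.6 FPKM in MS and 9.59 FPKM in control; the part of such reads in the Mars1 value was not tested. Hars (histidine; chromosome 18, 36899581 to 36916258) had 65.3, 69.7 and 64.7 FPKM in MS, against 48.8, 52.2 and 53.9 FPKM in control, a log2 fold change of 0.36 ± 0.05 (limma adjusted p = 0.00142).

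Kars (lysine; chromosome 8, 112720075 to 112737907), the other gene that supplies both compartments, did not pass the test. It had 39.1, 42.8 and 40.6 FPKM in MS, against 35.2, 36.2 and 39.2 FPKM in control, or 0.15 on the log2 scale (95% interval 0.01 to 0.28, limma adjusted p = 0.0681). MS 1 and control 3 were level, and the groups overlapped. Dars (aspartate) had 33.5, 35.0 and 31.9 FPKM in MS, against 28.5, 30.3 and 31.4 FPKM in control, also 0.15 on the log2 scale (95% interval 0.02 to 0.28, limma adjusted p = 0.0567), with all MS libraries above the controls. Without control 3, both passed, Dars at an adjusted p of 0.0344 and Kars at 0.0224. Over all alternatives run, the adjusted p ranged from 0.0344 to 0.513 for Dars and from 0.0172 to 0.992 for Kars.

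Qars (glutamine) was the steadiest member, with 21.1, 21.1 and 21.9 FPKM in MS, against 20.4, 20.4 and 20.4 FPKM in control. Its log2 fold change was 0.07 and its 95% interval ran from -0.03 to 0.17, short of a 2-fold change. Vars (valine) was the only cytosolic gene below its control level, with 44.7, 50.2 and 48.1 FPKM in MS, against 49.9, 51.0 and 62.3 FPKM in control. Its log2 fold change of -0.18 (95% interval -0.40 to 0.03) did not pass the test (limma adjusted p = 0.131), and MS 2 lay within the range of the controls. MS stood above control without overlap for 18 of the 20 cytosolic genes, all except Kars and Vars, against 35.9% of all tested genes.

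**Figure D3:**
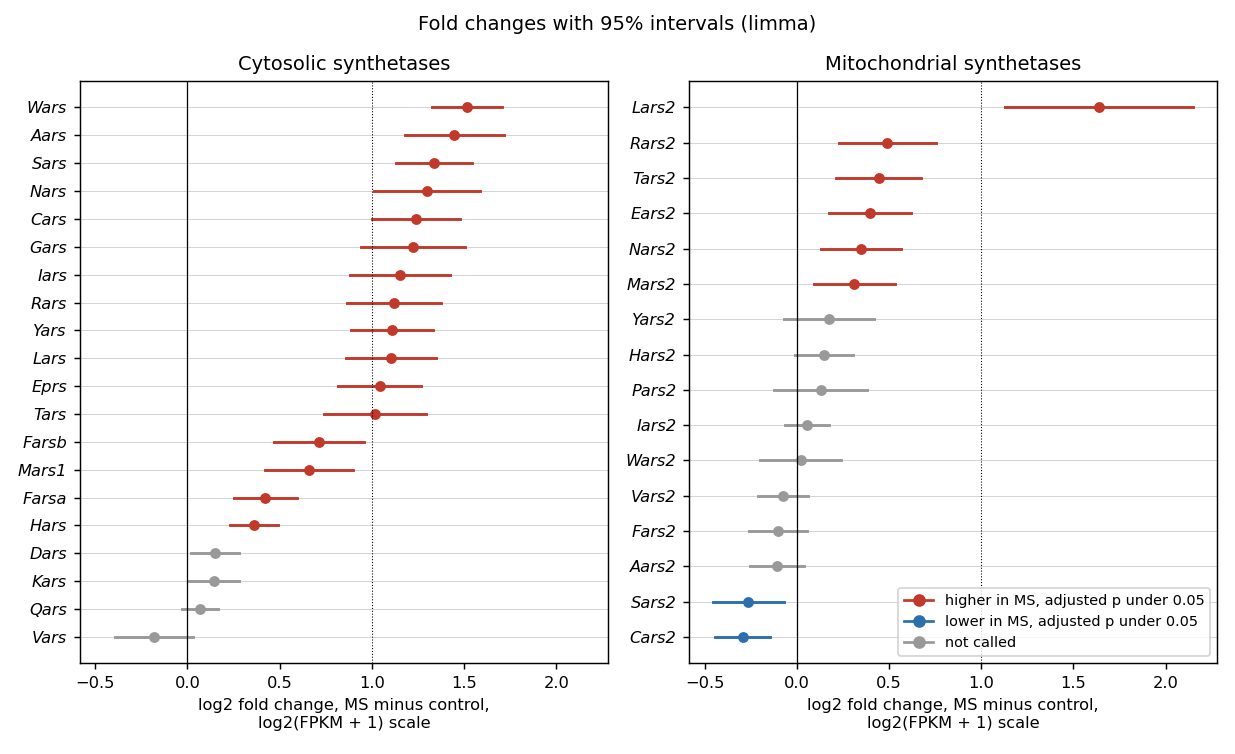
Log2 fold change of each synthetase, MS minus control on the log2(FPKM + 1) scale, with its 95% interval from limma, cytosolic genes on the left and mitochondrial genes on the right. The solid line marks 0 and the dotted line a 2-fold rise; 12 cytosolic genes and Lars2 lie beyond the dotted line.

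Sorting the cytosolic genes by their place in the cell gave no clean split. In mammals 8 of these genes code for enzymes of the multisynthetase complex, a particle that holds synthetases on scaffold proteins. Of these 8, 5 rose (Iars, Rars, Lars, Eprs and Mars1) and Dars, Kars and Qars did not pass, with a median log2 fold change of 0.85. Of the 12 outside the complex, 11 rose and Vars did not pass, with a median of 1.17. By catalytic class, the fold of the active site, 7 of 9 class I genes (median 1.11) and 8 of 10 class II genes (median 0.87) rose, with Eprs, which holds both, counted in neither. Over all tested genes, 30.6% rose. With the term for library sets described below, medians were 0.58 in the complex and 0.86 outside it. Those of class I and class II were 0.83 and 0.56. Differences between these subgroups were not tested. The scaffold genes themselves had smaller fold changes than most of the enzymes: Eef1e1 rose by 0.62 and Aimp1 by 0.38 on the log2 scale, and Aimp2 stood at 0.03, and with the term for library sets described below none of the 3 passed.

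Among the mitochondrial genes, Lars2 (leucine; chromosome 9, 123195992 to 123291731) stood alone. It had 16.6, 30.4 and 30.5 FPKM in MS, against 6.65, 7.88 and 7.48 FPKM in control, a log2 fold change of 1.64 ± 0.22 (SE, n = 3 each; limma adjusted p = 0.000748). MS 1 was far below the other MS libraries and still above every control. Rows annotated as ribosomal RNA moved in the same libraries. The nuclear ribosomal RNA row ENSMUSG00000119584 (chromosome 17, 40157244 to 40159092) had 4793, 12353 and 11918 FPKM in MS, against 1916, 2128 and 1525 FPKM in control, so MS 1 was again the lowest MS library. The mitochondrial ribosomal RNA mt-Rnr1 had 1083, 1430 and 1165 FPKM in MS, against 81.2, 79.7 and 104 FPKM in control, and mt-Rnr2 had 904, 1157 and 957 FPKM in MS, against 349, 405 and 497 FPKM in control. Ribosomal RNA reads are known to be assigned to mouse Lars2 at times, and their part in the Lars2 value was not tested. The ratio of Lars to Lars2 averaged 2.99 in MS and 4.52 in control, the opposite of most pairs described below. Without Lars2, the mitochondrial set held 5 genes that rose and 2 that fell, with a median log2 fold change of 0.13.

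**Figure D4:**
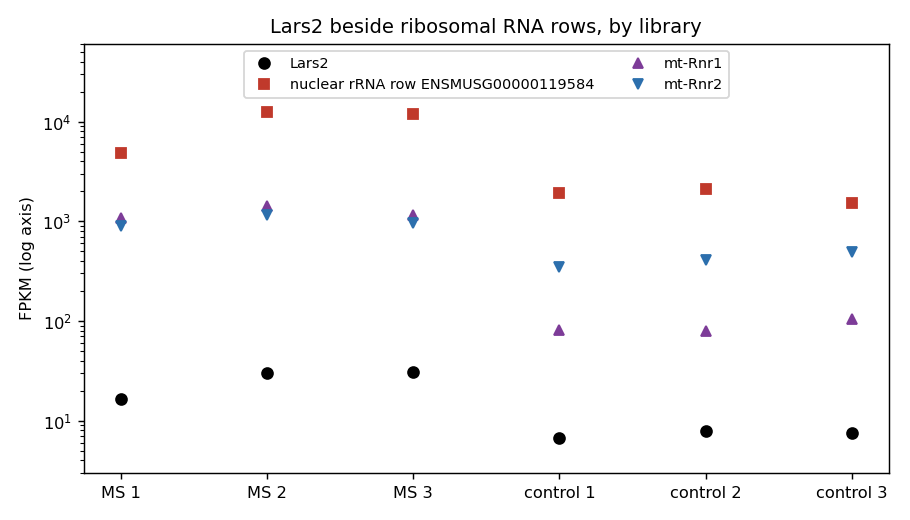
FPKM of Lars2 and of 3 ribosomal RNA rows in each library, on a log axis, with MS libraries left and control libraries right. MS 1 is lowest of the MS libraries for all 4 rows, and all MS values lie above all control values.

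The other 5 mitochondrial genes that rose did so by less than 0.5 on the log2 scale. Rars2 (arginine; chromosome 4, 34614957 to 34660167) had 11.6, 13.8 and 11.0 FPKM in MS, against 7.67, 7.65 and 9.75 FPKM in control, a log2 fold change of 0.49 ± 0.11 (limma adjusted p = 0.00863). Tars2 (threonine; chromosome 3, 95647288 to 95662195) had 7.48, 9.06 and 8.14 FPKM in MS, against 6.02, 4.98 and 6.36 FPKM in control, a log2 fold change of 0.44 ± 0.10 (limma adjusted p = 0.00727). The groups of both genes were apart. Ears2 (glutamate; chromosome 7, 121636436 to 121666293), whose product also charges the glutamine transfer RNA with glutamate for later conversion, had 1.51, 1.74 and 1.73 FPKM in MS, against 0.884, 0.977 and 1.21 FPKM in control. Its log2 fold change was 0.40. Nars2 (asparagine; chromosome 7, 96600712 to 96713965) had 1.70, 1.93 and 1.95 FPKM in MS, against 1.12, 1.16 and 1.47 FPKM in control, a log2 fold change of 0.35. Mars2 (methionine) averaged 1.52 ± 0.196 FPKM in MS and 1.03 ± 0.0900 FPKM in control (SD, n = 3 each), a log2 fold change of 0.31 (limma adjusted p = 0.0260). At levels this near 1 FPKM the log2(FPKM + 1) scale understates the change: the ratio of means was 1.62 for Ears2, 1.49 for Nars2 and 1.48 for Mars2. With the term for library sets described below, none of the 5 passed: Rars2 stood at 0.23, Tars2 at 0.20 and Ears2 at 0.18, with adjusted p-values of 0.298, 0.330 and 0.360. Over all alternatives these ranged from 0.00171 to 0.298 for Rars2, from 0.00165 to 0.330 for Tars2 and from 0.00256 to 0.360 for Ears2. The calls of Mars2 and Nars2 were also lost when single libraries were left out. Mars2 had adjusted p-values of 0.0869, 0.0674, 0.0653 and 0.0779 without MS 2, MS 3, control 1 and control 2 (0.00964 to 0.536 over all alternatives). Nars2 had 0.0530, 0.0574 and 0.0543 without MS 2, MS 3 and control 2 (0.00334 to 0.488 over all alternatives).

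The 2 mitochondrial genes that fell were Cars2 and Sars2. Cars2 (cysteine; chromosome 8, 11563977 to 11600783), an enzyme that in mammals can also make cysteine persulfide, had 2.74, 2.76 and 2.51 FPKM in MS, against 3.49, 3.61 and 3.37 FPKM in control. Its log2 fold change was -0.29 ± 0.06 (SE, n = 3 each; limma adjusted p = 0.00684), and its row overlaps that of Naxd on the opposite strand by 984 bp. With the term for library sets described below, Cars2 stood at -0.23 and did not pass (adjusted p = 0.201, and 0.00204 to 0.201 over all alternatives). Sars2 (serine; chromosome 7, 28441417 to 28453296) had 2.52, 2.82 and 2.41 FPKM in MS, against 3.34, 3.60 and 2.98 FPKM in control, a log2 fold change of -0.26 (limma adjusted p = 0.0294). Both genes were lower in every MS library than in any control library. Sars2 lost its call when MS 1, MS 3, control 1 or control 2 was left out, with adjusted p-values of 0.0751, 0.0951, 0.0756 and 0.1001 (0.00489 to 0.368 over all alternatives).

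The remaining 8 mitochondrial genes did not pass the test, and their log2 fold changes lay between -0.11 (Aars2) and 0.17 (Yars2). Hars2 (chromosome 18, 36916061 to 36925615), which lies head to head with Hars, had 7.01, 7.24 and 7.08 FPKM in MS, against 7.02, 5.98 and 6.01 FPKM in control, or 0.15 on the log2 scale (95% interval -0.01 to 0.31). Control 1 lay within the MS range, and without it the adjusted p was 0.0245 (0.0245 to 0.285 over all alternatives). The rows of Hars and Hars2 overlap by 198 bp on opposite strands. Their transcripts in GENCODE M21 share no run of 75 bases in the sense direction, the only one searched. That search could not show sharing between opposite strands, so it does not bear on the overlap. Iars2, the most abundant mitochondrial member in control, averaged 15.6 FPKM in MS and 15.0 FPKM in control, or 0.05 on the log2 scale (95% interval -0.07 to 0.17). Aars2, Fars2, Pars2, Vars2 and Wars2 had log2 fold changes of -0.11, -0.10, 0.13, -0.07 and 0.02. Yars2 was at 0.17, and passed without MS 1 (adjusted p = 0.0133, and 0.0133 to 0.574 over all alternatives). MS stood above control without overlap for 6 of the 16 genes and below it for 4 (Aars2, Cars2, Fars2 and Sars2), against 35.9% and 26.8% of all tested genes.

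Relative to its mitochondrial partner, the cytosolic gene stood higher in MS in most pairs. Of 17 pairs for the same amino acid, the ratio of cytosolic to mitochondrial FPKM was higher in every MS library than in any control library for 14. No share over other pairs of genes was computed as a baseline for these ratios, so the count is a description. Sars over Sars2 averaged 42.5 in MS and 13.1 in control, Wars over Wars2 averaged 37.9 in MS and 13.2 in control, and Aars over Aars2 averaged 13.5 in MS and 4.42 in control. These are the genes at the head of the cytosolic order, and of their partners Sars2 fell while Wars2 and Aars2 did not pass the test. Iars over Iars2, the pair with the most even levels in control, averaged 3.92 in MS and 1.80 in control. The groups overlapped for Lars over Lars2, Mars1 over Mars2 and Vars over Vars2. Ratios of single pairs were not tested. Eprs and Fars2 each stand in 2 pairs, so the pairs are not independent.

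The libraries of a group were not alike for these genes. Control 3 was the highest control for all 20 cytosolic genes and for 9 of the 16 mitochondrial ones, and MS 2 was the highest MS library for 18 of the 20 cytosolic genes. Control 3 exceeded the mean of control 1 and control 2 by a median ratio of 1.24 over the cytosolic genes, with the lowest value of 1.00 in Qars and the highest of 1.33 in Aars, and by 1.05 over the mitochondrial genes. Control 3 is also the control with the salivary and kidney transcripts. Set against it alone, MS 1, the MS library that shares both, was higher for 18 of the 20 cytosolic genes, with a median difference of 0.79 and a range of -0.47 (Vars) to 1.28 (Wars) on the log2(FPKM + 1) scale. The same difference had a median of 0.09 over the mitochondrial genes, near the 0.08 over all tested genes. It was above 0 for 10 of the 16, with Lars2 at 1.06. The share above 0 over all tested genes was not computed. A fit with a term for the 3 library sets (control 3 with MS 1, MS 2 with MS 3, control 1 with control 2), chosen after the data were seen, rests on that pair alone for its fold changes. Each arm is then 1 library, and the spread behind its p-values comes from MS 2 against MS 3 and control 1 against control 2, so MS 1 and control 3 are assumed to vary like these. In this fit the median log2 fold change was 0.79 over the cytosolic genes, against 0.08 over all tested genes. Wars, Aars and Sars kept rises of at least 2-fold, at 1.28, 1.09 and 1.07. Farsa and Hars lost their calls, at 0.23 and 0.27, and Vars was called lower at -0.47. Among the mitochondrial genes only Lars2 kept its call in this fit, at 1.06. Leaving out control 3 and MS 1 together, 17 cytosolic genes rose, as did 3284 of the 12028 tested genes.

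**Figure D5:**
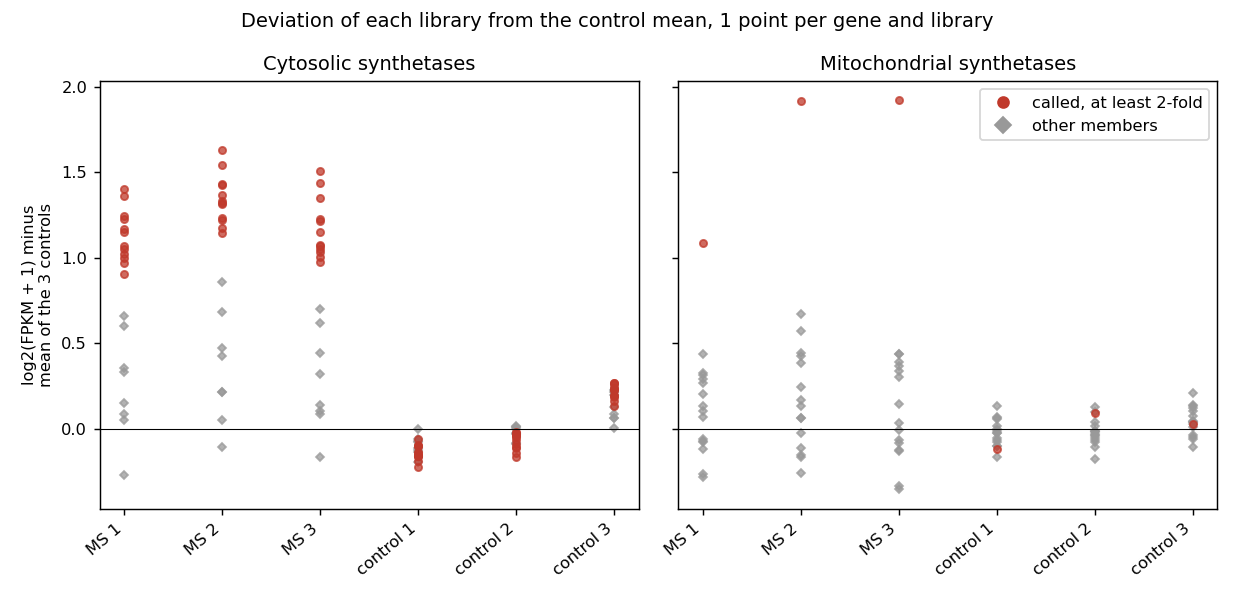
Log2(FPKM + 1) of each gene in each library minus the mean of the 3 controls, with MS libraries left and control libraries right in each panel. Red circles are genes that rose by at least 2-fold and grey diamonds the other members; control 3 lies above 0 for the cytosolic genes, below all red circles of the MS libraries.

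Genes of other steps of transfer RNA supply are given by their counts and values, and differences from the synthetases were not tested. Of 14 genes of transfer RNA export and maturation, 10 rose and 1 fell, against 30.6% and 23.2% of all tested genes. Their median log2 fold change was 0.35. Xpot, the exporter that carries transfer RNAs out of the nucleus, moved like the cytosolic synthetases, with 47.8, 54.9 and 45.9 FPKM in MS, against 20.3, 20.5 and 24.6 FPKM in control (log2 fold change 1.15, limma adjusted p = 9.80e-05). All MS libraries stood above the controls. Tsen34, a subunit of the splicing endonuclease, fell by 0.33 on the log2 scale, with means of 34.4 FPKM in MS and 43.5 FPKM in control. With the term for library sets, 5 of the 14 rose and none fell. Partners of mitochondrial charging amidate mischarged glutamine transfer RNA or formylate the initiator. Of their 4 genes, 3 rose, against 30.6% of all tested genes, with a median of 0.30. Gatc led them at 0.40, with means of 19.0 FPKM in MS and 14.2 FPKM in control, and none of the 4 passed with the term for library sets. Of 5 editing and related proteins, 1 rose and 1 fell, against 30.6% and 23.2% of all tested genes. Prorsd1 had a log2 fold change of 0.46, with means of 1.38 FPKM in MS and 0.747 FPKM in control. Its control mean lay under the filter of 1 FPKM, so it was tested only through its MS values. At this level the log2(FPKM + 1) scale understates the change. Tarsl2, a second cytosolic threonyl enzyme, fell by 0.59 on the log2 scale. Tarsl2 averaged 3.05 FPKM in MS and 5.13 FPKM in control, while Tars, which was far more abundant, rose. On the selenocysteine route, 2 of 6 genes rose and 1 fell, near the 30.6% and 23.2% of all tested genes: Secisbp2, which binds the selenocysteine insertion element, had a log2 fold change of 0.65 and Sephs1, a relative of selenophosphate synthetase, one of -0.63. With the term for library sets, the editing list held 1 gene that fell and none that rose, and the selenocysteine list 1 of each.

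Translation factors act in protein synthesis, the process that charged transfer RNAs supply. Of 7 cytosolic elongation factor genes, 5 rose and none fell, against 30.6% and 23.2% of all tested genes. Their median log2 fold change was 0.22. Eef1g, a subunit of the exchange factor for elongation factor 1A, led them with means of 175 FPKM in MS and 115 FPKM in control, a log2 fold change of 0.61. Of 8 tested mitochondrial translation factors out of 9 listed, 3 rose, near the 30.6% of all tested genes, and none fell, with a median of 0.14. Mtrf1 was below the filter. Gfm2, which acts in ribosome recycling, had the largest value at 0.50, with means of 3.54 FPKM in MS and 2.22 FPKM in control. With the term for library sets, 2 cytosolic and 1 mitochondrial factor passed as higher.

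Of 3 genes linked to the sensing of uncharged transfer RNA, 2 rose and 1 fell, against 30.6% and 23.2% of all tested genes. Eif2ak4, the gene of the kinase GCN2, was lower, with means of 3.51 FPKM in MS and 4.22 FPKM in control (log2 fold change -0.21, limma adjusted p = 0.0291). Impact, which encodes a competitor of GCN2 for its activator GCN1, rose, with means of 17.6 FPKM in MS and 8.02 FPKM in control (log2 fold change 1.05). Gcn1 rose by 0.31, and with the term for library sets Impact alone of the 3 passed. Of 14 genes of the integrated stress response, all 14 rose, against 30.6% of all tested genes. A rise of at least 2-fold was found for 10, against 1.74%. Their median log2 fold change was 1.31, and 0.90 with the term for library sets. This list was chosen with its rise in these data known. Atf4 had 200, 232 and 210 FPKM in MS, against 105, 108 and 129 FPKM in control (log2 fold change 0.90). The asparagine synthetase gene Asns had 142, 163 and 143 FPKM in MS, against 45.0, 44.8 and 65.6 FPKM in control (1.53), and the pseudokinase gene Trib3 had 56.3, 63.2 and 61.0 FPKM in MS, against 9.81, 9.81 and 14.0 FPKM in control (2.34). MS 2 was the highest MS library and control 3 the highest control for all 3 genes. MS stood above control without overlap for them, as for 35.9% of all tested genes. Cebpg of the same list had the reverse order, with 9.57, 9.39 and 9.83 FPKM in MS, against 6.54, 6.95 and 6.05 FPKM in control. The share of all genes with either order was not computed.

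Some values carry limits of counting. Of the 36 rows, 17 overlap another row, and the strand setting of the counting is not given in the sources used. In transcripts of GENCODE M21, 19.8% of the 75-base words of Aars also occur in Exosc6 and 3.22% of those of Iars in Gm4849. None of the other members shares any. Words were compared in the sense direction only. The search therefore does not bear on overlaps of opposite strands, such as that of Mars1 with Ddit3.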

How the data were processed

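RNA-seq had been done on 3 MS and 3 control libraries; per the labels' protocols, oligo(dT)-selected RNA was made into strand-marked libraries with inserts of 300 ± 50 bp and read as 150 bp pairs. The values are FPKM as deposited by the authors, per the file headers, with a single value per row and library. The build mm39 and the tools HISAT2 2.2.1, cutadapt 1.9, edgeR, StringTie 2.1.6 and DESeq2 are listed without roles, per the submitters' processing notes. Absolute depth is unknown; steps in low values gave library totals of 0.961 to 1.01 relative to control 1. The table identifies genes by Ensembl ID, and 31077 of 32815 took a symbol from GENCODE M21, where Mars1 is named Mars.

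Genes averaging 1 FPKM or more were tested on log2(FPKM + 1) with limma 3.58.1 (lmFit, eBayes with a trend, two-sided) in R 4.3.3, adjusted by Benjamini-Hochberg over 12028 genes; other steps used Python 3.11.15. The limma fit alone was tested on simulated data. Their noise was independent between libraries, so they held no shared differences like those of MS 1 and control 3. The labels name no separate cultures, so the p-values reflect only differences among these libraries, which could be technical. The members, lists and tests were chosen with earlier results of these data known. Values in every library are given for the 10 cytosolic and 5 mitochondrial genes with the largest absolute log2 fold change, for Lars2, Hars, Hars2, Gars and Kars, and for some others named after their values were seen. Of each pathway list, the called gene with the largest change in each direction is named, with the scaffold genes in full, and of the stress response Atf4, Asns and Trib3. Alternatives were the pseudocount, the filter, a median-ratio scaling, library weights, a replicate block, terms for library sets and leaving out libraries.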

Additional observations from a re-analysis of the deposited data

How the results depend on the processing

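The number of cytosolic genes that rose lay between 16 and 18 under every other setting except the term for 3 library sets below, and none was called lower in any of them, while the count over all tested genes lay between 5373 and 7221. The 16 were unchanged in number under a pseudocount of 0.1, without a filter on low values and under median-ratio scaling. In the main fit 6 mitochondrial genes rose and 2 fell. Without that filter 4 rose and 1 fell. Leaving out 1 library at a time gave 4 to 7 that rose and 1 to 2 that fell. With the term for 3 library sets, chosen after the data were seen, 1 cytosolic gene was called lower, 1 mitochondrial gene higher and 0 lower, and 3166 of all tested genes changed; its fold changes rest on 1 library per arm, MS 1 and control 3. Wars2 changed sign under median-ratio scaling (-0.015) and ranged from -0.032 to 0.099 with 1 library left out; with the term for library sets Kars stood at -0.0013 and Yars2 at -0.087. The cause was not tested. The replicate number as a block gave 5890 changed genes over all, with the cytosolic count at 16. It gave 5 mitochondrial genes that rose, and Mars2 lost its call (limma adjusted p = 0.0507). Deviations of same-numbered libraries correlated at -0.33, 0.25 and -0.37. Those of MS 1 and control 3, which share the salivary transcripts, correlated at 0.46. With that shared difference present, the correlations cannot tell whether the libraries were paired by number. FPKM give no depth, so counting error could not be set beside the values of the low mitochondrial genes.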
